A study of Mus musculus with 33 samples.

Results

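The 2′-5′-oligoadenylate synthase (Oas) family was followed in mouse lymphoid organs during oral nicotinamide (NAM). The family was taken as the rows of the expression table whose gene symbol was Oas1a, Oas1b, Oas1c, Oas1g, Oas2, Oas3, Oasl1 or Oasl2, which gave 8 of 56414 rows. C57Bl/6 mice were left untreated or drank water with 0.5% NAM, a form of vitamin B3 and precursor of NAD, for 1, 3 or 14 days. The labels give a renewal of the supply every 7 days, whereas the methods of the study give a more frequent change of solutions for its experiments in general. PolyA RNA was sequenced in 20 libraries labelled spleen, 5 in each of the 4 groups, and in 13 labelled lymph node, of which 3 came from untreated mice and 2, 4 and 4 from mice on NAM for 1, 3 and 14 days. The labels call these separate samples and do not say which animal gave which library, so p-values measure the spread between these samples.

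Oas enzymes are sensors of double-stranded RNA in the cytosol. On binding it they join ATP into 2′-5′-linked oligoadenylates, a second messenger that sets off the decay of RNA of virus and cell. Their genes belong to the interferon-stimulated genes, which are switched on after type I interferon signalling, and immune organs express them without infection. Oas1a and Oas1g are small synthases of the mouse Oas1 cluster. Oas1b is the flavivirus resistance gene of mice and is annotated as a polymorphic pseudogene, and Oas1c is a paralogue with no known synthase activity. Oas2 and Oas3 are larger enzymes built from repeated synthase units, and Oas3 prefers long RNA. Oasl1 restrains the translation of Irf7, a transcription factor for interferon genes, and Oasl2 joins a synthase unit to ubiquitin-like domains.

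The organ labels went against the marker genes in all 33 libraries. Glycam1, made by the high endothelial venules of lymph nodes, stood at 108200 to 214200 normalised counts in the libraries labelled spleen and at 1.585 to 12.38 in those labelled lymph node. Spic, the transcription factor of splenic red pulp macrophages, ran from 774.3 to 1295 in the former and from 6117 to 10490 in the latter. The groups are therefore named as "labelled spleen" and "labelled lymph node" throughout. Values are read counts divided by a size factor for each library. Totals per library were 18325061 to 54830743 reads for the spleen label, against 30424968 to 46733974 for the other. Under the spleen label all 3-day libraries (43632016 to 54830743) were deeper than all untreated (18325061 to 31486631) and all 1-day libraries (21848473 to 32066627), so that depth and group cannot be told apart in the comparisons of 3 days. A member had from 4 reads (Oas1g) to 2820 reads (Oas1a) in a library, and all 8 members passed the filter of a mean normalised count of at least 10 under both labels.

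The 8 genes lie in 2 groups on mouse chromosome 5 (mm10). Oasl2 occupies chr5:114896934-114912245 and Oasl1 chr5:114923239-114937915. The other members follow each other as Oas2 (chr5:120730333-120749853), Oas3 (chr5:120753098-120777659), Oas1c (chr5:120800093-120812515), Oas1b (chr5:120812635-120824163), Oas1g (chr5:120876142-120887613) and Oas1a (chr5:120896256-120907525). Reads cannot always be told apart between the closest copies. Of the 75-base words in the GENCODE M21 transcripts of Oas1a, 47.6% (862 of 1811) also occurred in Oas1g, and 36.9% of the Oas1g words (862 of 2336) occurred in Oas1a. For Oas1c 6.75% of words were shared with other genes, and Oas1b, Oas2, Oas3, Oasl1 and Oasl2 shared none. Whether reads were counted by strand is not stated, and 227 exonic bases of Oas1c (9.44%) overlap Gm43069 and 38 of Oasl1 (1.46%) overlap Gm13822, each on the opposite strand.

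RefSeq promoters of build GRCm38.p6 were searched over the 250 bases before each start for the core of the interferon-stimulated response element, GAAA and a second GAAA with any 2 bases between them on either strand, and for the core of the interferon gamma activated site, TTCNNNGAA. The promoter table held 6 of the 8 members, without Oas1b and Oas2. The response element core occurred in 2.98% of 32851 promoters (978) and in 4 of the 6 member promoters, namely Oas1a, Oas1g, Oas1c and Oas3. Oas1a, Oas1g and Oas1c each held 2 matches that overlapped, Oas3 held 1, and these letters were not in the Oasl1 and Oasl2 windows. TTCNNNGAA occurred in 7.02% of promoters (2306) and, among the members, in that of Oas1a as TTCAAAGAA. The 4 stretches around the response element cores are shown 5′ to 3′ along the gene, so that the matches can be compared between the members. Capitals mark the matches, which lie on the opposite strand in Oas1c. The start of Oas1b, which runs the other way, is next to that of Oas1c, so that the Oas1c matches also lie 22 to 7 bases before the start of Oas1b (chr5:120812635, plus strand) and in its orientation. The printed Oas1c stretch runs 19 bases into Oas1b.
Oas1a, chr5:120907526-120907585, minus strand: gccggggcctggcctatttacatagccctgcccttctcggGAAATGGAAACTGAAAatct
Oas1g, chr5:120887614-120887673, minus strand: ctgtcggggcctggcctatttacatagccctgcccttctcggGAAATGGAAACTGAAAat
Oas1c, chr5:120812594-120812653, minus strand: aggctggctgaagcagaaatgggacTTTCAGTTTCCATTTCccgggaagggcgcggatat
Oas3, chr5:120777700-120777759, minus strand: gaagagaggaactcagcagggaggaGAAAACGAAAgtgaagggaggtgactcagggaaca

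Without NAM, Oas1a was the most abundant member per length under both labels. Dividing the normalised count by the exonic length of each gene gave 302 ± 56.4 per kb (SD, n = 5) for Oas1a under the spleen label, above every library of the next member. Oas1c (113 ± 12.3), Oasl1 (98.6 ± 11.4), Oas1b (92.2 ± 19.6) and Oas3 (81.1 ± 21.9) followed with neighbours that overlapped in range. Oasl2 (40.7 ± 10.1), Oas2 (40.2 ± 18) and Oas1g (19.1 ± 11.1) were lowest, and a gap without overlap separated Oas3 from Oasl2. Under the lymph node label Oas1a stood at 1190 ± 238 per kb (SD, n = 3), followed by Oasl1 (261 ± 47.6) and Oas1b (223 ± 16). Oas2 (142 ± 22.1), Oas1c (133 ± 13), Oas1g (116 ± 20.6), Oas3 (113 ± 29.7) and Oasl2 (82.6 ± 11.6) were lower. Neighbours did not overlap between Oas1a and Oasl1 and between Oas1b and Oas2. The exonic length joined the exons of all annotated transcripts. It was 6374 bases for Oasl2 and 7069 for Oas3, whose longest transcripts have 3123 and 4720 bases. Oas1a has 1 transcript of 1885 bases. The places of Oasl2 and Oas3, and the gap between them, depend on this choice of length. Oas1a was also first in each of the 6 NAM groups. It made up 33% to 45.4% of the summed per-kb level of the 8 members in a library labelled spleen and 50% to 55.8% in a library labelled lymph node.

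**Figure D1:**
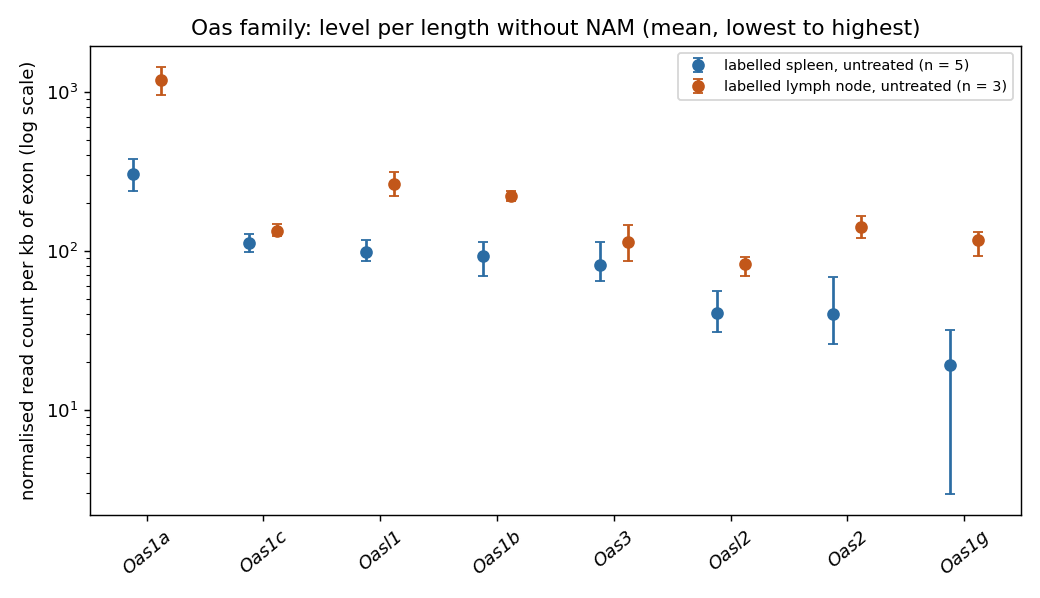
Mean normalised read count per kb of exon (log axis) of the 8 members in untreated libraries labelled spleen (n = 5) and lymph node (n = 3), with bars from the lowest to the highest library. Oas1a stands highest under both labels, at 302 and 1190 per kb, and Oas1g is lowest under the spleen label at 19.1 per kb.

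Oas1a, Oas1b and Oas1g were higher in every library labelled lymph node than in any labelled spleen, as were 19.1% of the 17147 rows past the filter under both labels. Oas1a ran from 445.9 to 1083 normalised counts over all libraries labelled spleen and from 1473 to 2698 over those labelled lymph node. Oas1b (137.9 to 313.6 against 355.6 to 520.4) and Oas1g (6.926 to 97.93 against 128.7 to 311.6) likewise did not overlap. The other 5 members overlapped. Among untreated libraries the mean under the lymph node label divided by that under the spleen label was 6.1 for Oas1g, 3.93 for Oas1a, 3.52 for Oas2, 2.65 for Oasl1, 2.42 for Oas1b, 2.03 for Oasl2, 1.39 for Oas3 and 1.18 for Oas1c. These ratios are a description with no test, and whether both labels were scaled together is not stated.

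After 1 day of NAM, most of the family was higher than in untreated mice in the libraries labelled spleen. Oas1a, Oas1b, Oas2, Oas3, Oasl1 and Oasl2 rose 1.39-fold to 1.59-fold in mean normalised count, Oas1g did not pass the test, and Oas1c was 0.93 of its untreated mean. The test was limma on log2(normalised count + 1) over 18243 rows, two-sided, and a row was called at a Benjamini-Hochberg adjusted p under 0.05. By it 6 of the 8 members were called higher, against 8.56% of all rows tested, and 7 had an unadjusted p under 0.05, against 30.9%. The median log2 fold change was 0.60 over the members and 0.0054 over all rows. On this scale the fold change of a low gene is understated by the added count.

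Among the synthases, Oas1a stood at 514, 713, 641, 536 and 446 normalised counts in the untreated libraries and at 717, 718, 1030, 803 and 1083 at 1 day. Every library at 1 day lay above every untreated library, narrowly for 2 of them. The log2 fold change was 0.61 (SE 0.17, limma adjusted p = 0.0206). Oas2 read 116, 306, 135, 211 and 127 untreated and 356, 237, 304, 259.7 and 231 at 1 day. Untreated replicate 2 lay among the treated libraries, and only replicate 1 at 1 day exceeded it. The log2 fold change of Oas2 was 0.71 (SE 0.21, limma adjusted p = 0.0243). Oas3 went from 455, 803, 473, 666 and 469.6 to 724, 613, 933, 859.7 and 1030. Of the 5 libraries at 1 day, 3 lay above all untreated ones, and the log2 fold change was 0.55 (SE 0.18, limma adjusted p = 0.0372).

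Oas1g is the low member under this label and could share reads with Oas1a. Its untreated libraries held 6.93, 74.3, 43, 36 and 63 normalised counts, and those at 1 day held 46.2, 84.7, 97.9, 59.7 and 73.4. The groups overlapped, and untreated replicate 1, with 4 reads, stood far below the rest. The log2 fold change was 0.97 (SE 0.44, limma adjusted p = 0.135) and was 0.42 (adjusted p = 0.356) without that library.

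Oas1b, annotated as a polymorphic pseudogene, gave 151, 215, 138, 227 and 188 untreated and 282, 252, 252, 232 and 263 at 1 day. Read counts do not tell whether its transcript encodes a working protein in these mice. The groups did not overlap, and the log2 fold change was 0.50 (SE 0.17, limma adjusted p = 0.0442), the closest to the threshold among the 6. Its neighbour Oas1c gave 291, 279, 236, 304 and 245 untreated and 269, 214, 253, 279 and 245 at 1 day. The groups lay over each other, the log2 fold change being −0.10 with a 95% interval of −0.34 to 0.13 (limma adjusted p = 0.573). The response element cores shown above for Oas1c lie between the starts of these neighbours, closer to that of Oas1b. Whether they act on either gene was not tested.

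Of the synthase-like genes, Oasl1 read 255, 305, 246, 256 and 224 untreated and 388, 308, 445, 339 and 472 at 1 day. All treated libraries were higher, and the log2 fold change was 0.59 (SE 0.16, limma adjusted p = 0.0154). Oasl2 read 255, 357, 196, 281 and 209.5 untreated and 330.1, 425, 402, 437 and 473 at 1 day. Here 4 of 5 treated libraries lay above all untreated ones, and the log2 fold change was 0.69 (SE 0.17, limma adjusted p = 0.0102). In all, 3 members (Oas1a, Oas1b and Oasl1) had groups that did not overlap, against 6.42% of all rows that were higher at 1 day without overlap.

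The calls of Oasl1 and Oasl2 held in 20 of 20 alternative analyses, with adjusted p of 0.00424 to 0.0407 and of 0.00293 to 0.0299. Oas1a held in 17, Oas2 in 12, Oas3 in 10 and Oas1b in 7. The count of 6 depended on single libraries, being 2 without untreated replicate 5 or without 1-day replicate 3, and 3 without untreated replicate 1, untreated replicate 3 or 1-day replicate 5. It was 4 without 1-day replicate 1 or 4 and 5 without 1-day replicate 2.

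Marker lists of other cells were set beside the members at 1 day under this label, where 8.56% of all rows were called higher and 8.05% lower. The 6 neutrophil markers were 1 of 6 called higher, with a summed level of 617.9 to 10740 against 225.1 to 1216 untreated, where 1-day replicate 3 held the highest and untreated replicate 1 the lowest sum and the other 1-day libraries reached 2765, and Camp and Ngp were at 0 in some libraries. The 8 adipocyte markers were 1 of 8 called higher, with sums of 106200 to 459400 against 32480 to 178100 and none at 0, again lowest in untreated replicate 1. Among these libraries the mean standardised level of the 8 members was also highest in 1-day replicate 3 (1.14) and lowest in untreated replicate 1 (−1.20). It was nearly as high in 1-day replicate 5 (1.125). Without 1-day replicate 3, 2 members were called, and without untreated replicate 1, 3 were. Leaving out other libraries gave the same counts, as stated above. Of the 6 markers of plasmacytoid dendritic cells, which make type I interferon, 1 was called higher and 2 lower. Their median log2 fold change was −0.216, with 2 of 6 positive. The sums, which weigh the most abundant markers most, were 11310 to 14480 against 10550 to 13770, with none at 0. The lymph node, macrophage and B cell lists each had 1 marker called lower, the spleen list had 1 called higher, and the erythroid, exocrine pancreas and T cell lists had none. In bulk RNA fewer cells of a type and less RNA per cell cannot be told apart, and the part of these markers in the Oas result was not tested.

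**Figure D2:**
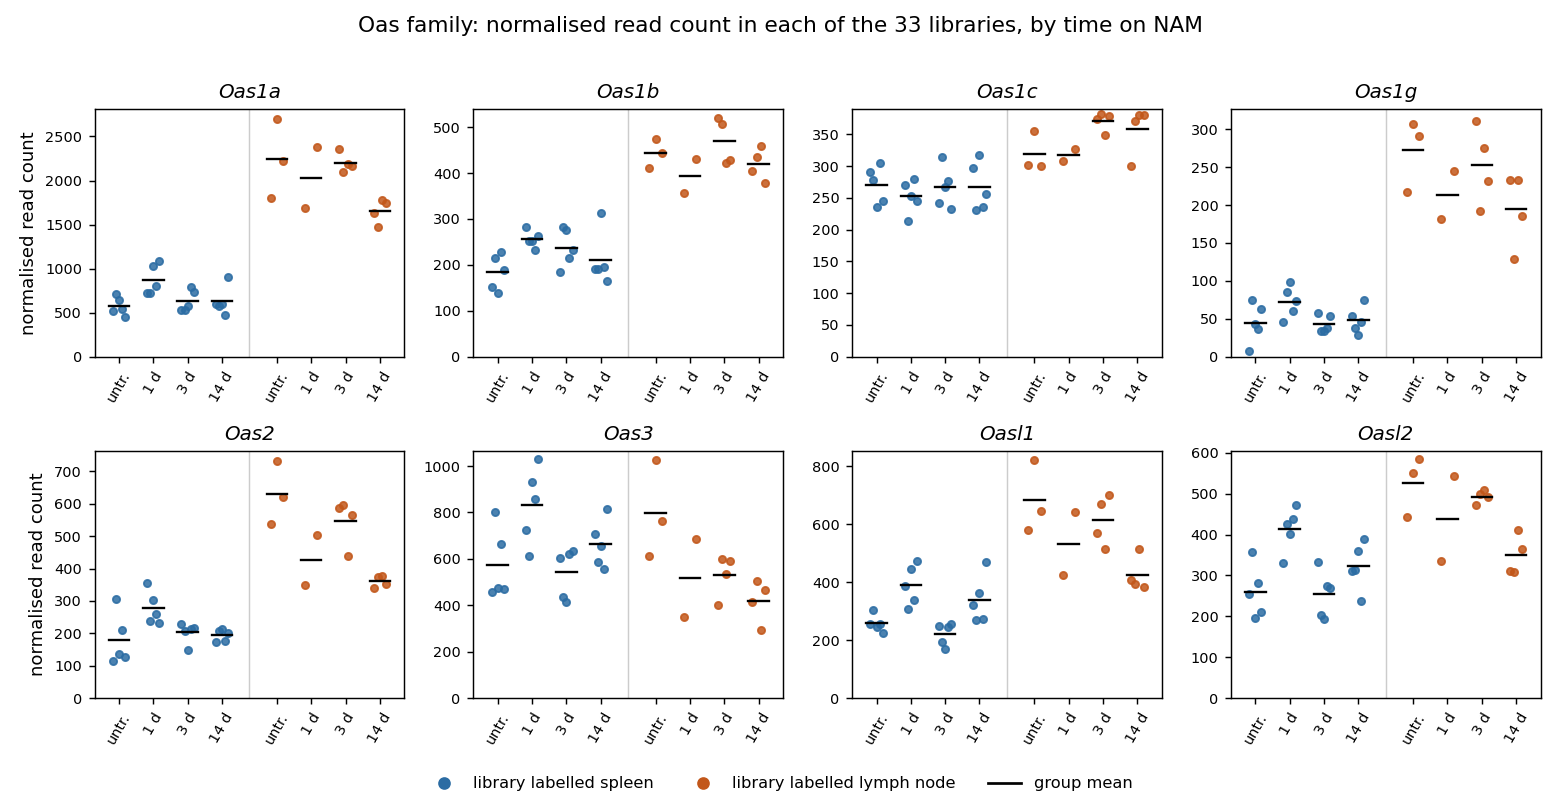
Normalised read count of each member in each of the 33 libraries by days on NAM, with libraries labelled spleen at the left and lymph node at the right of each panel and bars at group means. Oas1a under the spleen label lies at 446 to 713 untreated and 717 to 1083 at 1 day, whereas Oas1c lies at 236 to 304 and 214 to 279.

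At 3 days no member was called under the spleen label, against 5.55% of all rows. By limma 1 member had an unadjusted p under 0.05, against 22% of rows, and edgeR and DESeq2 on the whole reads called 0 members each, with 1084 and 1686 of 18243 rows called. Member log2 fold changes against untreated ran from −0.22 (Oasl1) to 0.38 (Oas1b, limma adjusted p = 0.185), with a median of 0.06. Oasl1 stood at 248, 194, 168, 244 and 256, with 2 libraries below the untreated range. Oas1b stood at 185, 282, 275, 214 and 232, with 3 above the untreated range. At 14 days limma, edgeR and DESeq2 called 0 members, and 1 had an unadjusted p under 0.05 by limma, against 2.8% of rows. No row at all was called by limma there (0%, over 18243 rows) or by edgeR, and DESeq2 called 1, which was no member. The limma adjusted p was 1 for each member. Log2 fold changes were positive for 7 of 8 members, from −0.03 (Oas1c) to 0.37 (Oasl1), with a median of 0.23. Oasl1 read 322, 268, 361, 274 and 470.5 at 14 days, overlapping the untreated libraries.

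Set against the 1-day libraries, the later time points gave lower values for most members but no calls. The comparisons of 3 days and of 14 days with 1 day use the same 1-day libraries as the comparison above, and so are not separate support for it. From 1 to 3 days the log2 fold change was −0.81 for Oasl1 (limma adjusted p = 0.13), −0.72 for Oasl2 (0.232), −0.62 for Oas3 (0.396), −0.46 for Oas1a (0.616) and −0.44 for Oas2 (0.705), with a member median of −0.54 and −0.013 over all rows. The 3-day libraries of Oasl1 and Oas2 lay below all 1-day libraries, as did those of 0.504% of all rows. By limma 5 members had an unadjusted p under 0.05 (6.98% of all rows) and 0 were called (0.00548%), while edgeR called 0 and DESeq2 2 (0.197%). From 1 to 14 days the log2 fold change was −0.50 for Oas2 (limma adjusted p = 0.136), −0.48 for Oas1a (0.0755) and −0.37 for Oasl2 (0.179), with a median of −0.34. Here 10.6% of all rows and 0 members were called, 3 members had an unadjusted p under 0.05, against 25.7% of rows, and edgeR and DESeq2 called 0, with 1949 and 2269 rows called. Without 14-day replicate 5, which held the highest Oas1a value of its group at 900.0, limma called 1 member, Oas1a.

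Oas2 fell after 14 days of NAM under the lymph node label, and no other member passed the test by limma. Its mean was 0.57 of the untreated mean. Oas3 (0.525), Oasl1 (0.622), Oasl2 (0.663) and Oas1a (0.739) had lower means without passing, and Oas1b and Oas1c lay closest to their untreated means. By limma 1 of 8 members was called lower, against 0.681% of 18215 rows, and 6 had an unadjusted p under 0.05, against 11.8%. DESeq2 and limma with library weights called more members, with 381 and 278 rows called, as given below. The median log2 fold change was −0.55 over the members and 0.0023 over all rows.

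Oas2 stood at 537, 733 and 621 normalised counts untreated and at 338, 373, 376 and 353 at 14 days. All treated libraries lay far below all untreated ones. The log2 fold change was −0.80 (SE 0.14, 95% interval −1.08 to −0.51, limma adjusted p = 0.0114). Oas3 gave 610.4, 1026 and 762 untreated and 416, 504, 295 and 465 at 14 days, without overlap, and a log2 fold change of −0.92 (SE 0.22, limma adjusted p = 0.0698). Oas2 was called in 16 of 17 alternatives. Without untreated replicate 2, which held the highest value of most members, its adjusted p was 0.105 and the count was 0. The count was 2 without untreated replicate 1, which added Oas1a, and 2 without 14-day replicate 3, which added Oasl1.

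Oasl1 read 581, 820.4 and 644 untreated and 407, 393, 513 and 382 at 14 days, and Oasl2 read 444, 550.2 and 586 against 311, 309, 412 and 364. Neither pair of groups overlapped. Their log2 fold changes were −0.68 (SE 0.15, limma adjusted p = 0.0515) and −0.59 (SE 0.15, limma adjusted p = 0.0724). Oas1a read 1803, 2698 and 2222 against 1632, 1473, 1777 and 1746, also without overlap, with a log2 fold change of −0.42 (SE 0.12, limma adjusted p = 0.138). In total 5 members (Oas1a, Oas2, Oas3, Oasl1 and Oasl2) were lower in all treated than in all untreated libraries, against 6.02% of all rows.

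The other Oas1 genes overlapped between the groups. Oas1g read 217, 308 and 292 untreated and 234, 129, 233 and 186 at 14 days (log2 fold change −0.50, SE 0.21, limma adjusted p = 0.348). Oas1b, at 411, 475 and 444 against 405, 435, 459 and 378, had a log2 fold change of −0.08 (limma adjusted p = 0.827). Oas1c, at 302, 355 and 299 against 300.4, 371, 381 and 380.2, had one of 0.17 (limma adjusted p = 0.586). Oas1c was again the member whose sign differed from the rest.

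Erythroid markers were at lower levels in the same libraries. None of 8 was called at 14 days, but their summed level was 793900 to 1187000 against 1452000 to 3060000 untreated, without overlap and with none at 0. Spleen markers at 14 days were 1 of 6 called lower, with sums of 42570 to 63000 against 71460 to 81690 and none at 0. At the same time the neutrophil list was 0 of 6 called, with sums of 10530 to 19050 against 12650 to 23740, and the plasmacytoid dendritic cell list was 0 of 6, with 12190 to 13840 against 13520 to 15040. At 3 days 5 of the 8 erythroid markers were called lower, with sums of 320900 to 1388000 and a median log2 fold change of −1.76, beside a median of −0.10 for the Oas members. Their part in the lower Oas values was not tested.

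The shorter treatments gave no call under the lymph node label. At 1 day all 8 members had negative log2 fold changes, with a median of −0.32 against −0.0005 over all rows. Oas3 stood at 349.8 and 687 in the 2 treated libraries (log2 fold change −0.67, SE 0.27, limma adjusted p = 0.246), so that the pair spanned the lowest untreated value. Oas2 stood at 349.8 (423 reads, the same number as Oas3 in that library) and 502, both below the untreated range (log2 fold change −0.58, SE 0.16, limma adjusted p = 0.102), as were 15.5% of all rows. Limma called 0 members, against 1.21% of rows, with 2 at an unadjusted p under 0.05 (15% of rows), while edgeR called 0 and DESeq2 1 (2.96% of rows). Replicate 1 was the lower of the pair for every member. Its 8 exocrine pancreas markers summed to 90160 against 1093 in replicate 2 and 1196 to 1268 in untreated libraries, and their part was not tested. Without it Oas3 had a log2 fold change of −0.19 and Oas2 of −0.31.

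At 3 days limma called 0 members, against 1.24% of rows, with 1 at an unadjusted p under 0.05 (14.8% of rows), and edgeR and DESeq2 called 0, with 206 and 493 rows called. Oas3 was lowest at 403, 601, 534 and 590.1 (log2 fold change −0.57, SE 0.22, limma adjusted p = 0.247), below all untreated libraries, as were 7.25% of all rows. Oas1c was at the other end at 375, 381, 349.5 and 379 (log2 fold change 0.22, limma adjusted p = 0.339), and the median was −0.10. From 3 to 14 days all 8 members had negative log2 fold changes, including −0.59 for Oas2 (limma adjusted p = 0.17), −0.53 for Oasl1 (0.433), −0.51 for Oasl2 (0.428) and −0.41 for Oas1a (0.445), with a median of −0.40. Oas1a, Oas2 and Oasl2 were lower without overlap at 14 than at 3 days, as were 1.75% of all rows. Limma called 0 members, against 0.011% of rows, with 4 at an unadjusted p under 0.05 (5.84% of rows), while edgeR called 0 and DESeq2 1 (0.302% of rows).

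**Figure D3:**
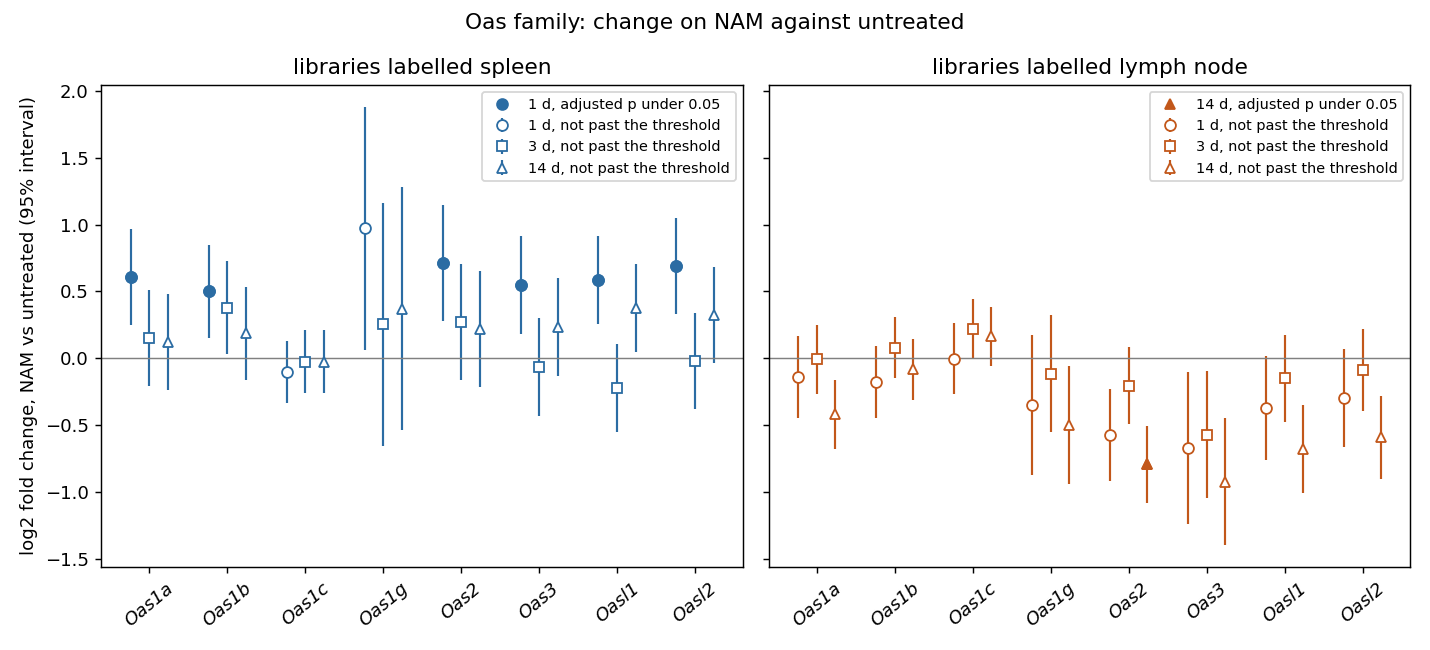
Log2 fold change of each member against untreated at 1, 3 and 14 days of NAM, with 95% intervals and filled symbols for adjusted p under 0.05, for each label. Under the spleen label 6 members are filled at 1 day, from 0.50 (Oas1b) to 0.71 (Oas2), and under the lymph node label Oas2 is filled at 14 days at −0.80.

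The difference of the NAM effect between the labels was tested as an interaction in limma over all 33 libraries and 17147 rows, as the spleen label minus the lymph node label. At 1 day it was positive for 7 of 8 members, with a median of 0.98 against 0.011 over all rows, and 1 member was called higher, against 0.811% of rows. An unadjusted p under 0.05 was found for 6 members and 17.1% of rows. That member was Oas2, at 1.29 (SE 0.32, 95% interval 0.63 to 1.95, limma adjusted p = 0.0376), from log2 fold changes of 0.71 and −0.58. Oas3 (1.22, adjusted p = 0.057), Oasl1 (0.96, 0.0593) and Oasl2 (0.99, 0.0622) lay just outside the limma threshold. Oas1a (0.75, 0.139), Oas1b (0.68, 0.149), Oas1g (1.32, 0.295) and Oas1c (−0.10, 0.835) were farther from it. The Oas2 call rests on 2 libraries at 1 day under the lymph node label and held in 12 of 23 alternatives. By edgeR and by limma with no filter 0 members were called, with 324 and 151 rows called. DESeq2 called more members than limma, with 659 rows called. In both 1-day libraries of the lymph node label the summed markers of several other cells also lay above all untreated libraries. They were 16510 to 17330 against 13520 to 15040 for plasmacytoid dendritic cells, 26170 to 35680 against 12650 to 23740 for neutrophils, 48970 to 52130 against 40630 to 40990 for macrophages, 23310 to 24800 against 20640 to 22090 for T cells and 13750 to 15460 against 6951 to 9444 for the lymph node list. Of single rows, 3114 of 18215 were likewise higher in both than in all untreated libraries. The sums of the B cell and erythroid lists overlapped, with 0 of 5 and 0 of 8 markers at a positive log2 fold change. In the interaction 1 of 6 plasmacytoid dendritic cell markers, 0 of 6 neutrophil, 1 of 6 macrophage, 0 of 5 T cell and 1 of 5 lymph node markers tested were called. The part of these markers in the Oas2 call was not tested. The count was 0 without untreated replicate 1, 3 or 5 of the spleen label, without any 1 of the 3 untreated libraries of the lymph node label, and without its 1-day replicate 1. It was 3 without untreated replicate 2 or 1-day replicate 2 of the spleen label, and 2 without 1-day replicate 2 of the lymph node label, where Oas3 and Oasl2 took the place of Oas2. Without 1-day replicate 1 of the spleen label, the 1 member called was Oasl2.

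At 3 days the difference ran from −0.25 (Oas1c) to 0.51 (Oas3), with a median of 0.23. Limma called 0 members, against 0.735% of rows, with 0 at an unadjusted p under 0.05 (13.1% of rows), and edgeR and DESeq2 called 0, with 147 and 337 rows called. At 14 days it ran from −0.19 (Oas1c) to 1.16 (Oas3, limma adjusted p = 0.23), with Oasl1 at 1.05 (0.0832) and a median of 0.89. Limma called 0 members, against 0.14% of rows, with 5 at an unadjusted p under 0.05 (4.85% of rows), while edgeR called 0 and DESeq2 1 (0.245% of rows). Without untreated replicate 2 of the spleen label, limma called 1, Oas2. All 3 differences share their untreated libraries.

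**Figure D4:**
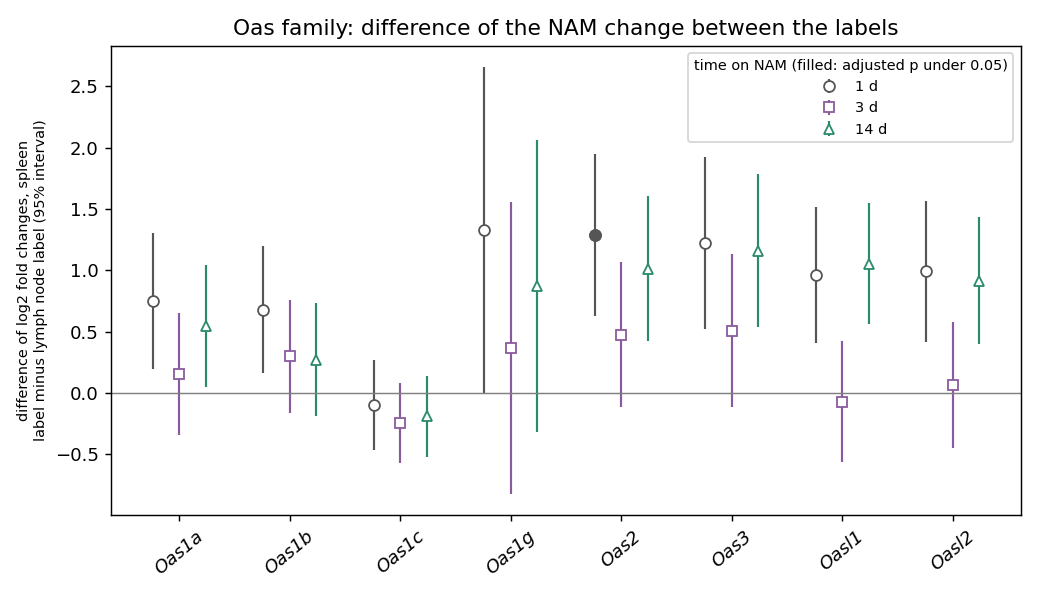
Difference of the log2 fold change against untreated between the labels (spleen label minus lymph node label) for each member at 1, 3 and 14 days, with 95% intervals and filled symbols for adjusted p under 0.05. Oas2 at 1 day, at 1.29, is the filled point, and Oas1c lies below 0 at each time, at −0.10, −0.25 and −0.19.

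Of 50 genes in lists of the interferon pathway, 26 could be tested under the spleen label, and 3 (11.5%) were higher and 1 (3.85%) lower at 1 day, against 8.56% and 8.05% of all rows, with a median log2 fold change of 0.05. Irf7, a transcription factor for interferon genes, went from a mean of 3488 ± 1071 to 5209 ± 384.7 (SD, n = 5 each, log2 fold change 0.62, limma adjusted p = 0.014). Usp18, which damps signalling at the interferon receptor, went from 884.1 to 1413 (0.68, adjusted p = 0.000809 by limma). Ifih1, a sensor of long double-stranded RNA, rose by 0.34 on the log2 scale (limma adjusted p = 0.0168). Tlr9, a receptor for unmethylated DNA, fell by 0.37 (0.0118). The transcription factors Stat2, with a log2 fold change of 0.08 (limma adjusted p = 0.566), and Irf9, with one of 0.00 (0.994), did not pass. None of Abce1, Pde12 and Akap7 was called, of which the last pair degrade the oligoadenylates that the synthases make, and their log2 fold changes ran from −0.0017 to 0.241.

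Under the lymph node label 2 of the 26 genes tested (7.69%) were lower at 14 days, against 0.681% of all rows, and none was higher, with a median of −0.07. Irf7 went from a mean of 6803 to 4396 (log2 fold change −0.62, limma adjusted p = 0.0138), and Dhx58, a regulator of RNA sensing, fell by 0.53 on the log2 scale (0.0133). Without untreated replicate 2 neither passed, with limma adjusted p of 0.12 and 0.108, nor without untreated replicate 3 (0.0679 each). Usp18 (−0.53, limma adjusted p = 0.091), Stat2 (−0.31, 0.051) and Irf9 (−0.07, 0.822) did not pass. Between the labels at 1 day the interaction was 0.96 for Irf7 (limma adjusted p = 0.0499) and 0.83 for Usp18 (0.0395). These calls held in 7 and 15 of 23 alternatives, and each was lost by leaving out single libraries of either label. Without 1-day replicate 1 of the lymph node label, the library with the pancreas markers, the interaction was 0.73 for Irf7 (limma adjusted p = 0.266) and 0.49 for Usp18 (0.318). At 3 days under the spleen label Tlr9 changed by −0.34 (0.0427, held in 8 of 20 alternatives), and from 1 to 14 days Usp18 changed by −0.53 (0.00637, 20 of 20), Tlr9 by 0.32 (0.0327, 13 of 20) and Irf3 by 0.23 (0.0267, 15 of 20).

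Most members varied together across libraries, Oas1c and, under the spleen label, Oas1b least. Under the spleen label the 21 pairs without Oas1c had a median Pearson r of 0.57 (0.12 to 0.88) over 20 libraries, and 0.38 after group means were removed. The 7 pairs with Oas1c had a median of −0.07 (−0.46 to 0.28). Oas1b had r of 0.12 with Oasl1 and 0.24 with Oas1a but 0.57 with Oas2. After group means were removed its highest r was with its neighbour Oas1c (0.53). Under the lymph node label the medians over 13 libraries were 0.67 (0.54 after group means were removed) and 0.07 (0.42). The points share size factors and groups, and these values are a description with no test. The genes most like the mean standardised level of the members were Irf7 (r = 0.92), Ifit1 (0.92), Parp9 (0.89), Rtp4 (0.88) and Mx2 (0.88) among 15519 under the spleen label. Under the lymph node label they were Irf7 (0.95), Usp18 (0.94), Rtp4 (0.93), Slfn8 (0.93) and Ifi27l2a (0.93) among 15320.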

How the data were processed

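The authors aligned paired-end reads of TruSeq mRNA libraries to mm10 (STAR 2.4.0, FastQC, Picard and SAMtools per the labels), and the deposited table holds a normalised signal per gene row, counts divided by DESeq2 size factors. The region counted for each gene is not given for this table. For other sets of the study its methods give constitutive gene regions, and levels per kb here divide by the full exonic length. Values gave back whole reads for 100% of entries within 0.1 of a whole number. All 33 columns were matched to labels, and 0 of 56 replicate pairs were identical.

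Rows with a mean of at least 10 within a label were tested with limma 3.58.1 (R 4.3.3) on log2(value + 1), with 1 fit for the 4 groups of a label and no block, while the whole reads went to edgeR 4.0.16 and DESeq2 1.42.0 as alternatives. The scripts were tested on simulated data. Summaries used Python 3.11.15, numpy 2.4.6 and pandas 2.3.3. Named genes were the 8 members, Stat2, Irf9, Irf7, Usp18 and list genes past the threshold, and some genes of the lists are not reported here. Members and lists were chosen with earlier results of these data known. Other alternatives changed the pseudocount, filter, scaling, library weights, groups fitted, block and call rule, or left out each library in turn. Replicate numbers did not pair the samples.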

Additional observations from a re-analysis of the deposited data

Results flagged for a closer look

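In the groups of 4 or 5 libraries, single libraries stood apart for 3 members, by the gap to the nearest other library over the range of the group. Oas1b reached 313.6 normalised counts in 1 library labelled spleen (14 days, replicate 3), where the nearest library had 195. Oas2 was at 149.6 in another (3 days, replicate 3), where the nearest had 208. Oas1c was at 300.4 in 1 library labelled lymph node (14 days, replicate 1), where the nearest had 371. These are 3 of 48 groups tested, and chance flags about 1 in 20.

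The effect of 1 day of NAM differed between the labels by the interaction test in limma for Oas2 (1.29 on the log2 scale), Irf7 (0.96) and Usp18 (0.83), each higher under the spleen label than under the lymph node label. Without 1-day replicate 1 of the lymph node label, 1 of a pair, none of the 3 passed, with limma adjusted p of 0.204, 0.266 and 0.318, and the value of Usp18 was 0.49.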

How the results depend on the processing

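Counts of members called were recomputed under each alternative, and the rows called over the whole table under the same setting are given after each in parentheses. At 1 day under the spleen label (6 called, 3030 rows) library weights gave 3 (3932) and leaving out 1 library 2 to 6 (2277 to 2887). For 14 days under the lymph node label (1 called, 144 rows) a pseudocount of 5 gave 2 (166), library weights 4 (278), DESeq2 4 (381), unadjusted p with a 1.5-fold change 4 (630) and leaving out 1 library 0 to 2 (31 to 159). The difference between labels at 1 day (1 called, 290 rows) gave 0 with no filter (151), 3 with a filter at 50 (384), 2 with library weights (882), 0 by edgeR (324), 4 by DESeq2 (659), 6 by unadjusted p and fold (1156) and 0 to 3 leaving out 1 library (58 to 413). Of comparisons with 0 called, 1 day under the lymph node label gave 1 by DESeq2 (540) and 1 by unadjusted p and fold (894); 3 days against 1 day under the spleen label gave 2 by library weights (26), 2 by DESeq2 (36) and 3 by unadjusted p and fold (332); 14 days against 1 day gave 1 with the compared groups alone (1506) and 0 to 1 leaving out 1 library (1214 to 1816); 14 days against 3 days under the lymph node label gave 1 by DESeq2 (55) and 1 by unadjusted p and fold (278); and the label difference at 14 days gave 1 by DESeq2 (42), 4 by unadjusted p and fold (430) and 0 to 1 leaving out 1 library (4 to 26).

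With a replicate block the count was 5 at 1 day under the spleen label (3039 rows) and 2 (121) for 14 days under the lymph node label. The block moved no other count of members within a label past 1.5 times, and it was not run for the label differences. Same-numbered libraries correlated at −0.496 to 0.468 under the spleen label (13 of 30 over 0.1) and at −0.107 to 0.0789 under the lymph node label (0 of 16). Libraries of different number correlated at −0.559 to 0.548 (41 of 120) and at −0.100 to 0.113 (2 of 46).

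Of 1394 values for single genes, 1214 kept direction and side of the threshold, 110 lost the call, 57 gained it and 13 turned sign. No called value turned sign. Those that did were Irf9 at 1 day under the spleen label (−0.0472 by quantile normalisation, −0.0741 to 0.0440 leaving out 1 library), Oas1c at 14 days under the spleen label (−0.0900 to 0.0242 leaving out 1 library) and Oas1c at 1 day under the lymph node label (0.0202 by quantile normalisation, 0.00922 with library weights, −0.0473 to 0.0757 leaving out 1 library). Over all rows, calls at 14 days under the lymph node label were 55 with the compared groups alone and 31 without untreated replicate 2, against 144. By unadjusted p and fold they were 1497 at 1 day under the spleen label, against 3030, and 943 from 1 to 14 days there, against 1940. The latter was 1214 without 14-day replicate 1. The lowest and highest over all alternatives, those leaving out a library included, beside the main count, were 66 and 894 (221) at 1 day under the lymph node label, 85 and 615 (226) at 3 days and 0 and 278 (2) from 3 to 14 days there. For the spleen label they were 140 and 4722 (1013) at 3 days, 0 and 204 (0) at 14 days and 0 and 332 (1) from 1 to 3 days, and for the label difference 58 and 1156 (290), 33 and 1944 (126) and 4 and 430 (24) at 1, 3 and 14 days. The cause was not tested. The 2 libraries at 1 day and 3 untreated under the lymph node label limit what those comparisons can show.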

Other observations

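Ligands of the pathway were mostly too low to test. Of 21 interferon genes listed, 1 passed the filter on low values, Ifng, the interferon of T and natural killer cells. Its mean normalised count was 28.8 ± 11.86 untreated and 41.24 ± 13.09 at 1 day (SD, n = 5 each) in libraries labelled spleen, and it went from 106.1 untreated to 78.18 at 14 days in those labelled lymph node, with no call in either. Ifnb1, the interferon beta gene, had 12 reads in all, in 6 libraries, with at most 3.03 normalised counts. The other Oas1 paralogues (Oas1d, Oas1e, Oas1f and Oas1h) had at most 6 reads in a library, 0 of 4 passed the filter, and Oas1f and Oas1h had no read in any library.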
